A study of Mus musculus with 10 samples.

Results

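Transcription regulators known as MLL fusion targets, or as partners of those targets in self-renewal, were measured in mouse leukemia cells, and 9 of them are described here out of 24015 genes in the count table. They were taken by symbol (Myb, Mef2c, Jmjd1c, Mecom, Eya1, Runx1, Runx2, Erg and Gata2), a list of names rather than a cut on expression. The cells are MAF9 cells, bone marrow cells of C57BL/6 mice that carry the transduced MLL-AF9 fusion, grown in IMDM with interleukin-3 (10 ng/ml) and fetal bovine serum (15%). They were treated for 4 days with DMSO, MM-401, EPZ5676 (EPZ in the labels), MI-2-2 (MI or MI-2 in the labels) or iBET, each inhibitor at its own IC50. Each of the 5 groups had 2 RNA-seq libraries, 10 in all, from transformed cells in culture, so all groups share the fusion, the medium and the cytokine. The series calls them biological duplicates, but no label says whether they were separate cultures, so p-values measure only the spread between these libraries.

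MLL1 is a histone methyltransferase, and chromosomal translocations join its N-terminal part to partners such as AF9. The fusion keeps the contact with MENIN and recruits elongation factors and DOT1L, the H3K79 methyltransferase, to genes that normally serve stem and progenitor cells. MM-401 blocks the contact of MLL1 with WDR5, EPZ5676 inhibits DOT1L, MI-2-2 blocks MENIN, and iBET displaces BET bromodomain proteins from acetylated histones. The comparisons ask how much of the leukemic program each kind of inhibitor reaches. Myb, Gata2, Runx1, Runx2, Erg, Mef2c and Mecom encode DNA-binding factors of blood progenitors, Jmjd1c a JmjC-domain protein of the histone demethylase family, and Eya1 a coactivator of homeodomain proteins.

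Library totals lay between 20394762 and 29473127 reads. Levels are given as counts per 1000000 reads (CPM) after TMM normalization, which scales each library by a trimmed mean of its ratios to a reference library. The 12 myeloid marker genes were all present, and their summed level was 12298 to 15104 CPM in DMSO, 13223 to 13640 in MM-401, 7554 to 9106 in EPZ5676, 8159 to 8363 in MI-2-2 and 7979 to 8554 in iBET. Of the 12 markers 6 rose and 4 fell with EPZ5676, and 6 rose and 5 fell with MI-2-2, so the lower sums hide rises such as that of Csf3r, from 31.6 and 53.2 CPM in DMSO to 221 and 292 in EPZ5676 and 271 and 394 in MI-2-2. Over all genes tested, 38.1% with EPZ5676 and 41.4% with MI-2-2 passed the test described below. The part of this marker shift in the regulators' values was not tested. DMSO replicate 2 stood apart from the rest, with 3630 reads on Y-linked genes against 0 to 2 in every other library and 4.76 CPM of Xist against 928 to 3051 elsewhere. It also had 7 genes at 10 CPM or more that had at most 2 reads in each other library, Eya1 among them, while no other library had such a gene. Every comparison with DMSO rests on this library and on DMSO replicate 1, and calls of the regulators that depend on one of them are given without it. The comparisons between inhibitors hold neither in the contrast, but the shared estimate of the spread includes both. Y-linked reads with almost no Xist are the pattern of male cells, and Xist with almost no Y-linked reads that of female cells. This library was thus not made from the same cells as the rest. The labels do not mention this difference, and the DMSO mean, and each fold against it, is taken over cells of both sexes. The part of DMSO replicate 2 in the results was tested only by leaving it out.

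A gene is said to rise or fall where the quasi-likelihood test of edgeR, in 1 fit of all libraries, gave a Benjamini-Hochberg adjusted p under 0.05 over the 12971 genes that passed the filter on low counts. Among the 9 regulators 7 passed that filter, and Eya1 and Mecom did not. With EPZ5676, 5 of the 7 were called: Myb, Mef2c, Runx2 and Gata2 fell and Erg rose. With MI-2-2, Myb, Runx2 and Gata2 fell and Erg rose. With iBET, Jmjd1c rose and Erg fell, and with MM-401 none of the 7 was called. The background differed widely between the inhibitors. Of all genes tested, 38.1% were called with EPZ5676 (18.7% higher and 19.4% lower), 41.4% with MI-2-2 (20.2% higher and 21.2% lower), 13.9% with iBET (6.38% higher and 7.54% lower) and 0% with MM-401. At an unadjusted p under 0.05, 1450 genes passed with MM-401, Runx2 alone among the 7, and DESeq2 called 297 genes and none of the regulators. The median log2 fold change of the 7 was -0.91 with EPZ5676, -0.71 with MI-2-2, -0.17 with iBET and 0.06 with MM-401, where all genes tested had medians of -0.06, -0.05, -0.04 and -0.01. Scaling by total counts instead of TMM moved the median of all genes to -0.226 with EPZ5676 and -0.205 with MI-2-2, and the share of higher genes among those called from 49.2% to 34.7% and from 48.9% to 37.1%. Under that scaling the calls above kept their direction, and Mef2c was also called with MI-2-2.

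**Figure D1:**
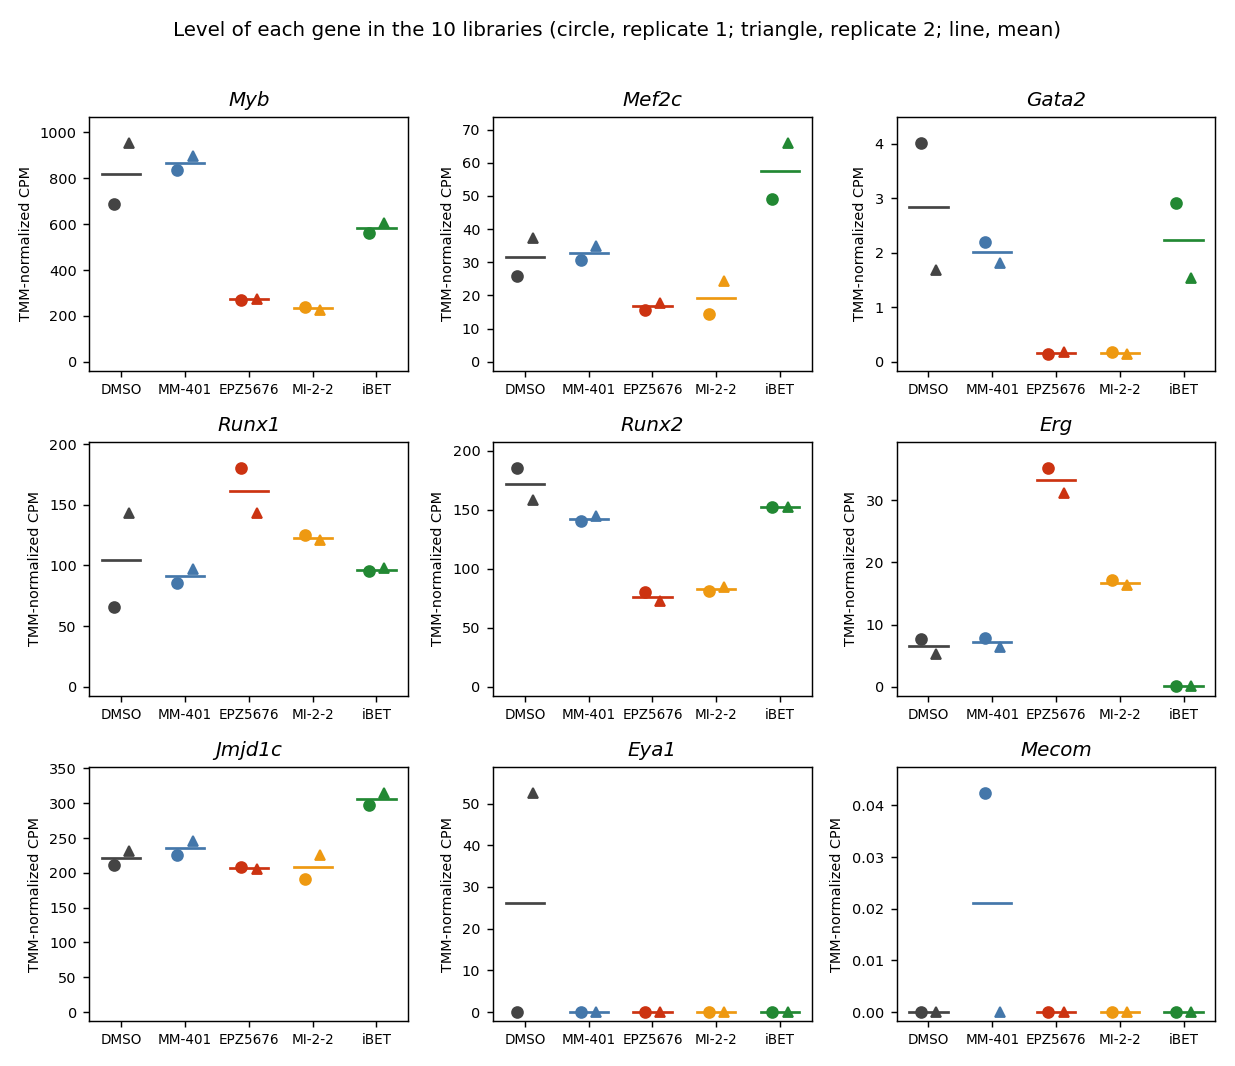
TMM-normalized CPM of the 9 regulators in each of the 10 libraries, 1 panel per gene with its own axis from 0, groups on the horizontal axis, circles for replicate 1, triangles for replicate 2 and lines for the mean. Myb, Runx2 and Gata2 are lowest in EPZ5676 and MI-2-2, Erg is highest in EPZ5676 and near 0 in iBET, and Eya1 is read almost only in DMSO replicate 2.

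Myb, Runx2 and Gata2 are the regulators that fell with both EPZ5676 and MI-2-2, so the 250 bases before their annotated start sites are shown. RefSeq's table for GRCm38.p6 held promoters of 8 of the 9 regulators, and Eya1 was not among them. The counts were made on mm9, so these coordinates belong to the sequences only. All are written 5′ to 3′ on the gene's own strand. Capitals mark a match, on either strand, to AGATAA (bound by GATA factors), CCGGAA (ETS factors), TGTGGT (RUNX factors) or AACTG (MYB), none of which contains another.
Myb, chr10:21160985-21161234, minus strand: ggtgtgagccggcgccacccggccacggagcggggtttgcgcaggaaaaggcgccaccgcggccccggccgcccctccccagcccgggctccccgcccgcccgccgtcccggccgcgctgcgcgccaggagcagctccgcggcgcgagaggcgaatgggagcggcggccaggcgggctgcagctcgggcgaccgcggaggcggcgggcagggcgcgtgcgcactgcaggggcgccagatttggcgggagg
Runx2, chr17:44814628-44814877, minus strand: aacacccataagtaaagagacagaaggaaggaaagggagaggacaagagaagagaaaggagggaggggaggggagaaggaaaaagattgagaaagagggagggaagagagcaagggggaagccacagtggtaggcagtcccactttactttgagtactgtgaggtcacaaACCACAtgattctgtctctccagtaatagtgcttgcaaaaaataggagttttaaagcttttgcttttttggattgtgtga
Gata2, first start, chr6:88193641-88193890, plus strand: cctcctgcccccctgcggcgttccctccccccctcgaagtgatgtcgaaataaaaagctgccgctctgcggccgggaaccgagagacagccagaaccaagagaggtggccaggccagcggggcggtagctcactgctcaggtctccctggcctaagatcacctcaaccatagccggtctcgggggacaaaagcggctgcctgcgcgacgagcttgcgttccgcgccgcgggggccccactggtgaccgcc
Gata2, second start, chr6:88198414-88198663, plus strand: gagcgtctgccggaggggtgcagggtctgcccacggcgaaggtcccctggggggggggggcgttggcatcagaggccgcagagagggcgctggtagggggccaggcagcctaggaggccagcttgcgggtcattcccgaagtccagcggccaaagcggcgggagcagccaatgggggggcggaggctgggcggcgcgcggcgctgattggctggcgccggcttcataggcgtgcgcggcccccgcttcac

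These windows do not share their base composition. The Myb window holds 40 CpG dinucleotides, more than 98.7% of the 32851 promoters of this length, and the Gata2 windows hold 22 and 24, above 85.2% and 88% of them. The Runx2 window holds 0, where the median promoter holds 6. The only motif match in the 4 windows was the single RUNX match of Runx2, and 14% of all promoters hold one. The GATA letters occur in 9.99%, the ETS letters in 12% and the MYB letters in 39.1% of them. A match is a run of letters and was not tested as a binding site. The table lists 3 starts for Erg, and gene-level counts do not show which start of a gene was used.

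Myb, a factor that blood progenitors need to keep dividing, was the most abundant of the 9 per exon length. Its level was 687 and 953 CPM in DMSO, 838 and 897 in MM-401, 561 and 605 in iBET, 271 and 274 in EPZ5676 and 240 and 227 in MI-2-2. All 4 EPZ5676 and MI-2-2 libraries lay under every other library, iBET lay under both DMSO libraries, and MM-401 lay between the DMSO pair. Myb fell 3.01-fold with EPZ5676 (log2 fold change -1.59, SE 0.17, adjusted p = 0.000787), and the log2 fold change with MI-2-2 was -1.81 (SE 0.17, adjusted p = 0.00061). In bulk RNA such a fall cannot be told apart from fewer cells that express the gene. The log2 fold change with iBET was -0.49 (SE 0.17, adjusted p = 0.085), which did not pass. It was -0.70 without DMSO replicate 1 and -0.24 without DMSO replicate 2, so its size depends on which DMSO library is kept. With DESeq2 on all libraries it passed. With MM-401 the log2 fold change was 0.08, and its 95% interval is given with the others in the comparison of the inhibitors. In the order of means MM-401, DMSO, iBET, EPZ5676 and MI-2-2, the libraries of MM-401 and DMSO overlapped and those of the other neighbours did not.

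Gata2, a zinc-finger factor of stem cells, early progenitors and mast cells, was among the least abundant. DMSO had 103 and 35 reads, MM-401 52 and 43, iBET 66 and 40, EPZ5676 3 and 4, and MI-2-2 4 and 4. In CPM this was 4.01 and 1.68 in DMSO, 2.2 and 1.81 in MM-401, 2.92 and 1.53 in iBET, 0.145 and 0.188 in EPZ5676, and 0.173 and 0.146 in MI-2-2. The EPZ5676 and MI-2-2 libraries thus lay far under all others, while DMSO, MM-401 and iBET overlapped. From the summed reads Gata2 was 17.7-fold lower with EPZ5676 than in DMSO (95% interval 8.38 to 44.9) and 18.7-fold lower with MI-2-2 (9.23 to 44.2), where the exact binomial intervals cover counting error only. The fitted log2 fold changes were -4.05 (SE 0.62, adjusted p = 0.00242) and -4.12 (SE 0.61, adjusted p = 0.00202). With iBET the log2 fold change was -0.36 (SE 0.49, adjusted p = 0.649), and without DMSO replicate 1 it was 0.40. Gata1, the erythroid and megakaryocytic relative, had 25 reads in DMSO replicate 2 and at most 3 elsewhere. The summed level of the 10 mast cell and basophil markers was 31.5 and 131 CPM in DMSO, 45.8 to 52.6 in MM-401, 27.1 to 35.5 in EPZ5676, 23.5 to 24.1 in MI-2-2 and 20.5 to 23.3 in iBET. Of these markers Fcer1a, Cma1, Prss34 and Gzmb were at 0 reads in every library. Hdc made up much of the DMSO sum, at 14.1 to 118 CPM. From DMSO to iBET the mean of Hdc went from 66.1 to 5.6 CPM and that of Ms4a2 from 5.97 to 2.66. That of Mcpt8 went the other way, from 9.34 to 13.6, so the sum does not stand for each marker.

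Runx2, a RUNX-family factor best known from bone and also expressed by myeloid progenitors, fell with the same inhibitors but less steeply. Its level was 185 and 158 CPM in DMSO, 140 and 145 in MM-401, 152 in each iBET library, 80.1 and 72.4 in EPZ5676 and 80.8 and 84.8 in MI-2-2. EPZ5676 and MI-2-2 did not reach the other libraries, and MM-401 and iBET lay just under the lower DMSO library. The log2 fold change was -1.17 with EPZ5676 (SE 0.12, adjusted p = 0.00063) and -1.05 with MI-2-2 (SE 0.12, adjusted p = 0.000799). With iBET it was -0.17 and with MM-401 -0.27 (SE 0.11, adjusted p = 0.445), of which neither passed. The summed level of the 5 stromal markers was 6.21 to 19.1 CPM in EPZ5676, 2.99 to 11.4 in MI-2-2 and at most 1.2 elsewhere, nearly all of it Col1a1, with Col1a2 and Col3a1 at 0 in every library. The part of such cells in the Runx2 result was not tested.

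Runx1, the DNA-binding subunit of core binding factor, had DMSO libraries that were far apart. Its level was 66.2 and 143 CPM in DMSO, 85.5 and 97.4 in MM-401, 95.1 and 98.2 in iBET, 180 and 143 in EPZ5676 and 125 and 121 in MI-2-2. The DMSO libraries were 2.16-fold apart and spanned all MM-401, iBET and MI-2-2 libraries. No comparison with DMSO passed: the log2 fold change was 0.63 with EPZ5676 (SE 0.31, adjusted p = 0.138), 0.24 with MI-2-2, -0.11 with iBET and -0.19 with MM-401. Against DMSO replicate 1 alone, Runx1 was higher with EPZ5676 (log2 fold change 1.31, adjusted p = 0.00187) and MI-2-2 (0.93, adjusted p = 0.00536). Against DMSO replicate 2 alone, it was lower with MM-401 (-0.64, adjusted p = 0.04) and iBET (-0.56, adjusted p = 0.0321), and MI-2-2 turned to -0.21. These fits without 1 DMSO library take the spread from the other groups.

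Erg, an ETS-family factor of stem cells, megakaryocytes and endothelium, gave the widest range across groups of the 7 tested regulators. It was at 7.75 and 5.27 CPM in DMSO, 7.9 and 6.38 in MM-401, 35.1 and 31.2 in EPZ5676, 17.1 and 16.4 in MI-2-2, and 0.133 and 0.115 in iBET. Both iBET libraries held 3 reads, every EPZ5676 library lay above every MI-2-2 library, and DMSO and MM-401 overlapped. Erg rose 5.07-fold with EPZ5676 (log2 fold change 2.34, SE 0.23, adjusted p = 0.00063). It rose with MI-2-2 by 1.36 on the log2 scale (SE 0.23, adjusted p = 0.00305), a call lost when only the MI-2-2 and DMSO libraries were fitted (adjusted p = 0.0618). From the summed reads, 6 in iBET and 309 in DMSO, Erg was 54-fold lower with iBET (95% interval 24.5 to 148). The fitted log2 fold change was -5.67 (SE 0.33, adjusted p = 0.000334), with an adjusted p of 0.0834 when only these 4 libraries were fitted. Leaving out any library in turn kept all 3 calls. The summed level of the 5 megakaryocyte markers also ran from 8.39 to 8.66 CPM in EPZ5676 and 4.71 to 8.28 in MI-2-2, against 0.863 to 2.96 in DMSO, 2.06 to 2.45 in MM-401 and 0.536 to 0.663 in iBET. Among the 5 endothelial markers, 3 were under 1 CPM in every library, with sums of 1.26 to 2.12 CPM in EPZ5676, 0.438 to 0.477 in MI-2-2, 0 to 2.83 in DMSO and 0 in iBET. The part of these markers' cells in the Erg result was not tested.

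Mef2c, a MADS-box factor of lymphoid and myeloid progenitors, had fold changes of opposite sign with EPZ5676 and iBET. Its level was 25.8 and 37.3 CPM in DMSO, 30.7 and 34.9 in MM-401, 15.7 and 17.8 in EPZ5676, 14.4 and 24.2 in MI-2-2, and 49.2 and 65.9 in iBET. Every iBET library lay above, and every EPZ5676 and MI-2-2 library below, every DMSO library. Only the fall with EPZ5676 passed (log2 fold change -0.91, SE 0.29, adjusted p = 0.0388). That call was lost without DMSO replicate 2 (-0.60, adjusted p = 0.152), without either EPZ5676, MM-401 or iBET library, and when only the EPZ5676 and DMSO libraries were fitted. The log2 fold change was -0.71 with MI-2-2 (SE 0.29, adjusted p = 0.081) and 0.87 with iBET (SE 0.28, adjusted p = 0.0795). With MI-2-2 it was -0.94 without DMSO replicate 1 and -0.38 without DMSO replicate 2. Without MI-2-2 replicate 1 or replicate 2 it was -0.38 and -1.13. With iBET it was 0.63 without DMSO replicate 1 and 1.15 without DMSO replicate 2. On all libraries, Mef2c passed with MI-2-2 under total-count scaling, and with iBET under DESeq2 (0.85, adjusted p = 0.0352). Of the 6 B-lymphocyte markers 4 were under 1 CPM in every library, with Pax5 and Ebf1 at 0 reads. Their summed level was 3 to 3.69 CPM in DMSO, 3.19 to 4.44 in MM-401, 8.1 to 8.52 in EPZ5676, 4.16 to 5.55 in MI-2-2 and 0.177 to 0.574 in iBET. Most of it was Cd79b, a B-cell receptor chain, which rose with EPZ5676 (log2 fold change 1.22) and fell with iBET (-4.56), opposite in sign to Mef2c. Its part in the Mef2c values was not tested.

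Jmjd1c passed the test with iBET alone. It stood at 212 and 231 CPM in DMSO, 226 and 246 in MM-401, 208 and 206 in EPZ5676, 191 and 225 in MI-2-2, and 298 and 314 in iBET. The iBET libraries lay above all 8 others, EPZ5676 just under both DMSO libraries, and MI-2-2 and MM-401 overlapped DMSO. Jmjd1c rose with iBET by 0.47 on the log2 scale (SE 0.12, adjusted p = 0.0414). The call was lost without DMSO replicate 1 (0.41, adjusted p = 0.0567), without either iBET, MM-401 or EPZ5676 library, with DESeq2 size factors, with no filter on low counts and when only the iBET and DMSO libraries were fitted. With EPZ5676 and with MI-2-2 the log2 fold change was -0.09, and the 95% intervals were -0.37 to 0.18 and -0.37 to 0.19.

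Eya1 and Mecom were almost unread. Eya1 had 0 reads in DMSO replicate 1 and 1093 in DMSO replicate 2, or 52.4 CPM, then 2 in MM-401 replicate 1, 1 in MI-2-2 replicate 2 and 0 in the other libraries. The DMSO level of Eya1 is thus the level of 1 library. Over the group, Eya1 was at least 328-fold lower with EPZ5676 and at least 382-fold lower with iBET, bounds set by 3 reads over the group and resting on DMSO replicate 2, since against DMSO replicate 1 there is no read on either side. Prdm16, a relative of Mecom, had the same distribution, with 509 reads (24.4 CPM) in DMSO replicate 2 and 0 in the 9 other libraries. Mecom itself, the EVI1 locus, had 1 read in MM-401 replicate 1 and 0 elsewhere.

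**Figure D2:**
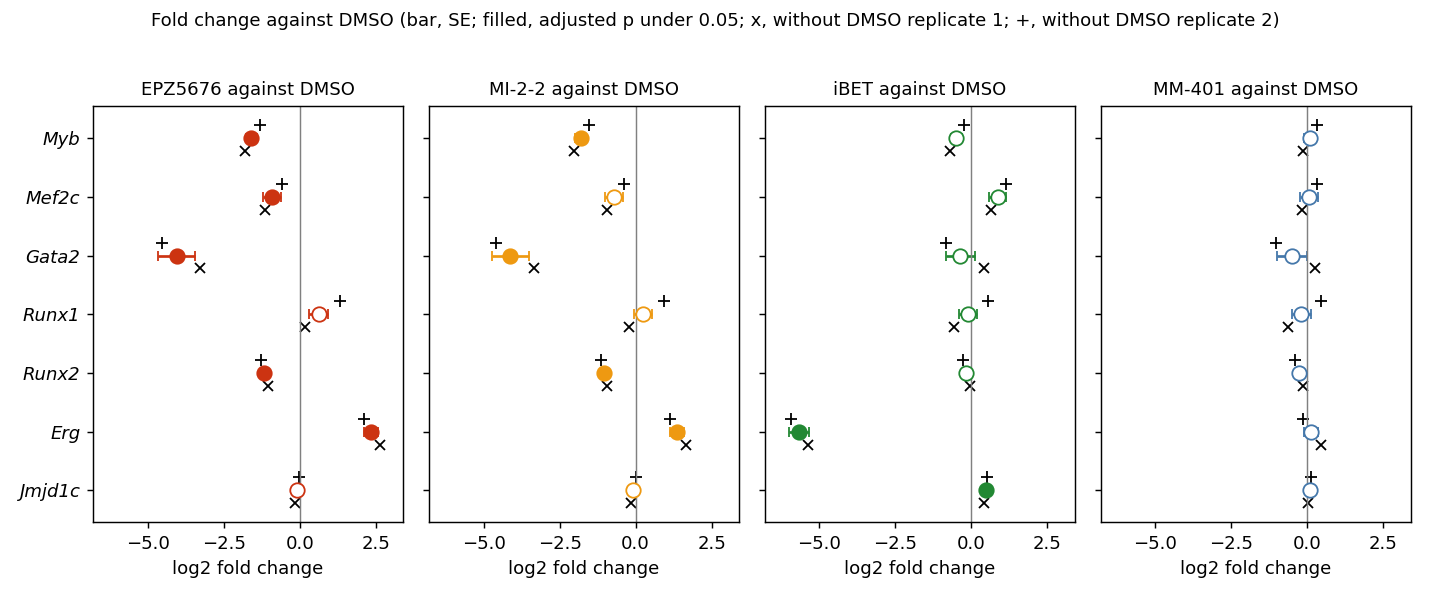
Log2 fold change against DMSO of the 7 regulators that passed the filter, 1 panel per inhibitor, with bars for the SE, filled circles where the adjusted p was under 0.05, and crosses for the fits without DMSO replicate 1 (x) or replicate 2 (+). For Runx1 the marks for the DMSO libraries lie on either side of 0 with MI-2-2, iBET and MM-401, while those of Myb, Runx2, Gata2 and Erg stay on the side of the circle with EPZ5676 and MI-2-2.

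The inhibitors were also compared with each other, with no DMSO library in the contrast. The 4 libraries of EPZ5676 and MI-2-2 were set against the MM-401 and the iBET libraries, with 42.2% of all genes called against MM-401 (20.5% higher and 21.6% lower) and 45.7% against iBET (21.9% higher and 23.8% lower). With total-count scaling the higher share of the called genes went from 48.7% to 36.1% and from 47.9% to 37.3%. Against MM-401, 5 of the 7 regulators were called, with Erg higher and Myb, Mef2c, Runx2 and Gata2 lower. The log2 differences were 1.72 for Erg (SE 0.21, adjusted p = 0.000939), -1.78 for Myb (SE 0.14, adjusted p = 0.000336), -0.87 for Mef2c (SE 0.24, adjusted p = 0.0222), -0.84 for Runx2 (SE 0.10, adjusted p = 0.000765) and -3.58 for Gata2 (SE 0.48, adjusted p = 0.00126). Against iBET the same genes were called together with Jmjd1c, which was lower in EPZ5676 and MI-2-2 (log2 difference -0.56, SE 0.10, adjusted p = 0.00361). Erg differed most, by 7.52 on the log2 scale (SE 0.33, adjusted p = 2.19e-05), a fit that rests on 6 reads in iBET. Mef2c had a log2 difference of -1.68 (SE 0.24, adjusted p = 0.0012). The Mef2c call against MM-401 was lost without MM-401 replicate 1 (adjusted p = 0.0799), MM-401 replicate 2 (0.144) or EPZ5676 replicate 1 (0.0629). Runx1 had log2 differences of 0.63 against MM-401 (SE 0.27, adjusted p = 0.0965) and 0.55 against iBET (SE 0.27, adjusted p = 0.133), with every EPZ5676 and MI-2-2 library above every MM-401 and iBET library. Leaving DMSO replicate 1 or replicate 2 out of the fit gave Runx1 log2 differences of 0.63 and 0.67 against MM-401, and 0.54 and 0.58 against iBET. With only the groups compared in the fit, and so no DMSO library, Runx1 was called in both comparisons. Those fits called 6812 of 12756 genes tested against MM-401 and 6810 of 12755 against iBET. DESeq2 on all libraries called Runx1 against MM-401 but not against iBET.

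Between EPZ5676 and MI-2-2, 0.0154% of all genes were called (0.00771% higher and 0.00771% lower). At an unadjusted p under 0.05 in the same test 937 genes passed, and DESeq2 called 156. With 2 libraries per group, so few calls do not show that these inhibitors act alike. None of the 7 regulators was called. Erg came nearest, at an unadjusted p of 0.00218. It was 1.98-fold higher with EPZ5676 than with MI-2-2 (log2 0.98, SE 0.22, adjusted p = 0.283), and it passed with DESeq2. Without DMSO replicate 1 or replicate 2 in the fit the log2 difference was 0.98 and 0.97. The 95% interval of the log2 difference was -0.16 to 0.61 for Myb, -0.38 to 0.15 for Runx2, -0.31 to 1.09 for Runx1 and -1.60 to 1.74 for Gata2, so a difference of a few-fold in Gata2 could not be detected at 7 and 8 reads.

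MM-401 and iBET differed in 11.4% of all genes (5.96% higher and 5.48% lower in MM-401) and in 1 of the 7 regulators. Erg was higher with MM-401 by 5.80 on the log2 scale (SE 0.33, adjusted p = 0.000324), or 58-fold from 339 and 6 reads (95% interval 26.4 to 159). Myb was higher (0.57, SE 0.17, adjusted p = 0.0636), and Mef2c (-0.81, SE 0.28, adjusted p = 0.108) and Jmjd1c (-0.37, SE 0.12, adjusted p = 0.0873) lower, without passing. None of these 3 overlapped between the groups, but neither did Runx2, at a log2 difference of -0.09 (adjusted p = 0.638). The share of all genes without such overlap was not counted, so the lack of overlap is a description only. A fit of the 4 MM-401 and iBET libraries alone called Erg, Myb, Mef2c and Jmjd1c but not Runx2, among 4223 called of 12064 genes tested. Against DMSO, the 95% interval of the log2 fold change with MM-401 was -0.30 to 0.46 for Myb, -0.60 to 0.71 for Mef2c, -0.18 to 0.37 for Jmjd1c, -0.53 to -0.01 for Runx2, -0.39 to 0.65 for Erg and -1.65 to 0.63 for Gata2.

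**Figure D3:**
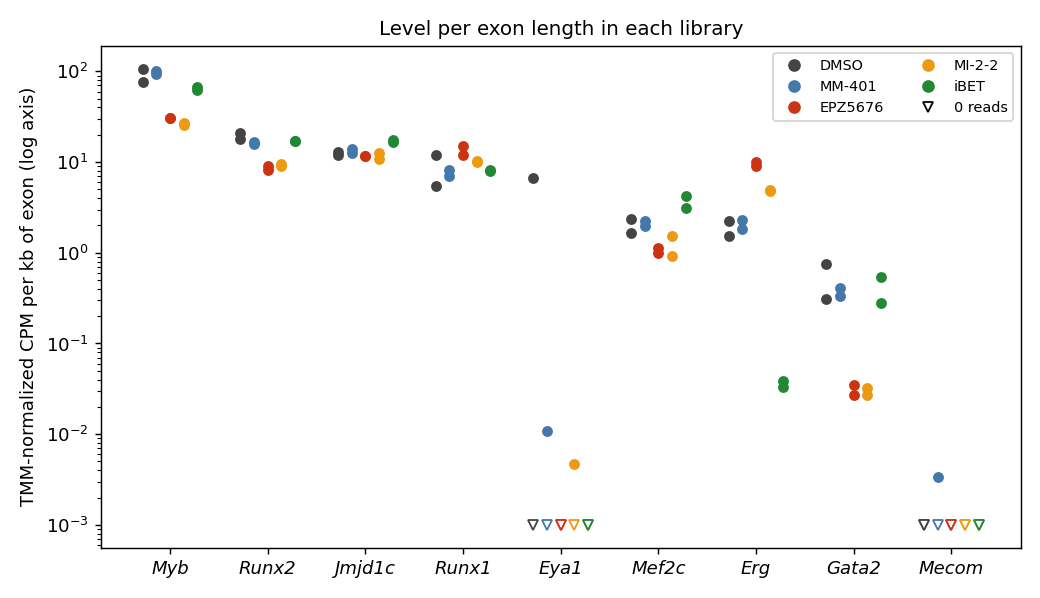
TMM-normalized CPM per kb of exon for each regulator (horizontal axis) in each library (points, coloured by group), on a log axis, with open triangles at the foot for libraries with 0 reads. Myb is the most abundant in every group, and Erg in iBET and Gata2 in EPZ5676 and MI-2-2 fall to the lowest levels of the genes that passed the filter.

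Levels of different genes can be compared only per exon length, here the union of annotated exons. In DMSO the mean CPM per kb was 91.8 ± 21.1 for Myb (SD, n = 2, as for the values that follow), 19.4 ± 2.17 for Runx2, 12.4 ± 0.755 for Jmjd1c and 8.69 ± 4.5 for Runx1. Lower still were Mef2c at 2.01 ± 0.519, Erg at 1.88 ± 0.505 and Gata2 at 0.527 ± 0.306. Mef2c and Erg did not differ beyond their spread, nor did Jmjd1c and Runx1. In EPZ5676 Erg was at 9.55 ± 0.798 per kb and Runx2 at 8.63 ± 0.616, which did not differ beyond their spread. Runx1 was at 13.4 ± 2.16 there, and Myb, still first, at 30.5 ± 0.293. Annotated exons of other genes overlap those of Myb (Gm26577, 559 bases), Runx2 (Runx2os1, 519 bases) and Runx1 (Gm26626, 106 bases) on the opposite strand. None of the 3 is in the count table, and how strand was counted is not given in the sources used here, so reads of both strands cannot be told apart there.

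Among the 24 other genes known as MLL fusion targets, 20 were tested. With EPZ5676, 2 rose and 9 fell, and with MI-2-2, 3 rose and 8 fell, with medians of -0.69 and -0.70 on the log2 scale beside -0.06 and -0.05 for all genes. Meis1, the homeodomain partner of HOXA9, fell most (log2 fold change -5.67 with EPZ5676 and -6.12 with MI-2-2), further than any of the 7 tested regulators with those inhibitors. Cpeb2, an RNA-binding protein, rose most with EPZ5676 (1.24) and Hoxa5 with MI-2-2 (1.11). With iBET only Prom1, the membrane protein CD133, was called (log2 fold change -5.80, from 1147 and 1575 reads in DMSO to 31 and 21), and with MM-401 none. The fall of Prom1 with iBET was of the size of that of Erg (-5.80 and -5.67). Over all genes tested, the shares called were 38.1% for EPZ5676, 41.4% for MI-2-2, 13.9% for iBET and 0% for MM-401. Whether the counts of this list exceed those shares was not tested.

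**Figure D4:**
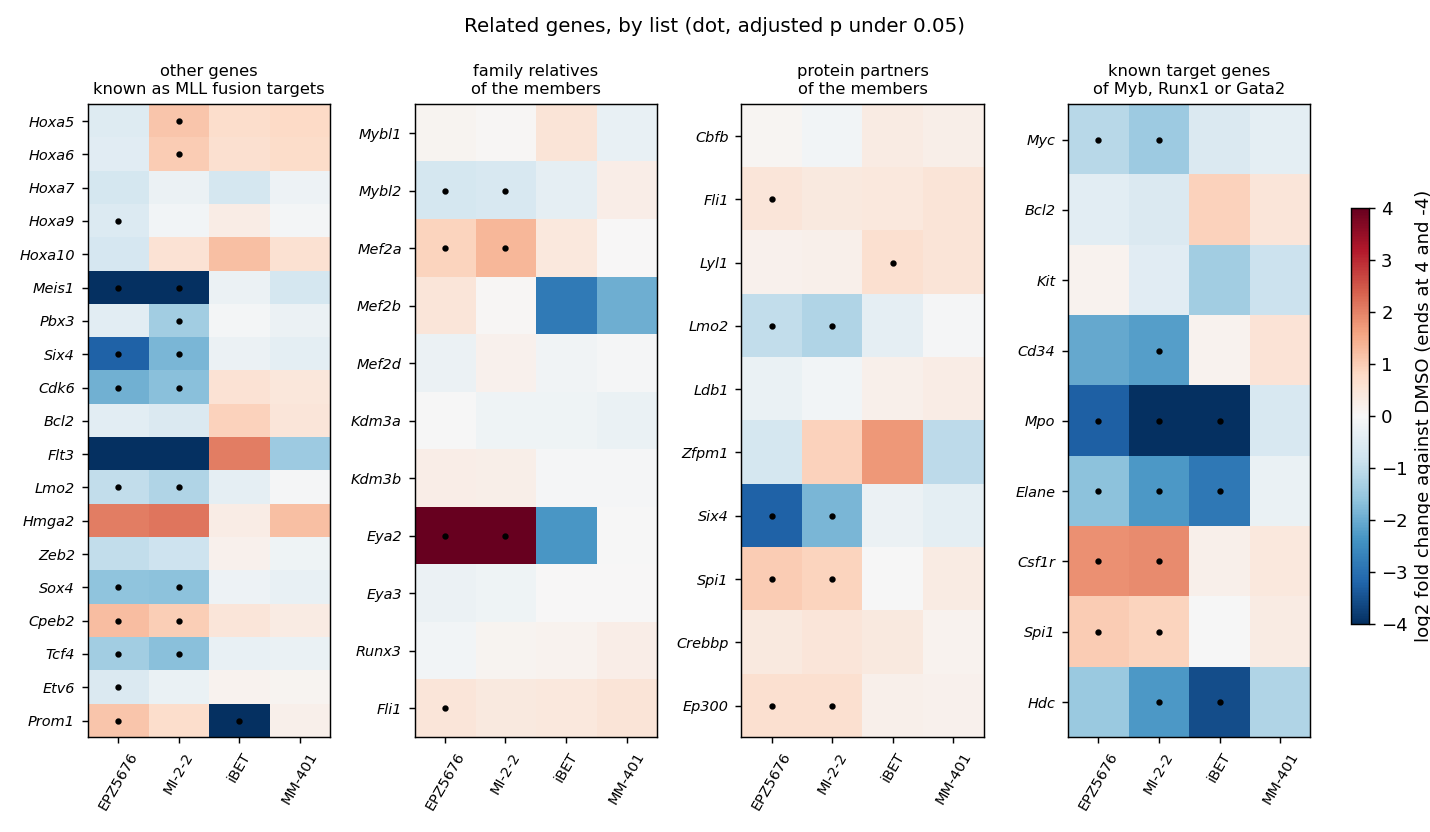
Log2 fold change against DMSO (colour, ending at 4 and -4) of the tested genes of 4 lists, less 1 gene that is not shown, with inhibitors in columns and dots where the adjusted p was under 0.05. Meis1, Six4 and Mpo are dark blue with EPZ5676, Eya2 is dark red with EPZ5676 and MI-2-2, and the MM-401 column has no dot.

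Of 15 relatives of the regulators 11 were tested. With EPZ5676, 3 rose and 1 fell, with MI-2-2, 2 rose and 1 fell, and with iBET none was called, with medians of 0.10, 0.11 and -0.05. These counts stand beside the 38.1%, 41.4% and 13.9% of all genes called with these inhibitors. Mybl2, the cell-cycle relative of Myb, fell with EPZ5676 and MI-2-2 (log2 fold change -0.70 and -0.63, SE 0.13 each). Mef2a, named after its values were seen, went the other way from Mef2c, from 41.5 and 45.9 CPM in DMSO to 78.9 and 82.1 in EPZ5676 and 101 and 118 in MI-2-2 (log2 fold change 0.88 and 1.33, adjusted p = 0.00241 and 0.000674). Eya2 rose from 0.0389 and 0 CPM in DMSO to 1.02 and 0.706 in EPZ5676 and 0.954 and 0.657 in MI-2-2 (log2 fold change 5.03 and 4.93), a low level in every library. With 1 read in DMSO, it passed the filter on low counts only through the EPZ5676 and MI-2-2 libraries, so it could be called only as a rise. Runx3 was at 51.2 to 92.3 CPM throughout, with log2 fold changes of -0.12 with EPZ5676 and 0.11 with MI-2-2.

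Of 12 protein partners 11 were tested. With EPZ5676, 3 rose and 3 fell (median 0.09), with MI-2-2, 2 rose and 3 fell (0.19), and with iBET 1 rose (0.32). The shares called over all genes were 38.1%, 41.4% and 13.9%. Six4, a homeodomain protein of the kind that EYA proteins bind, fell most (log2 fold change -3.22 with EPZ5676 and -1.82 with MI-2-2). Spi1, the ETS factor PU.1 and a partner of RUNX1, rose most (1.03 and 0.89), and with iBET it was Lyl1, a bHLH partner of LMO2 and GATA2, that rose (0.64, adjusted p = 0.0178). Cbfb, the subunit that pairs with RUNX1 and RUNX2, had log2 fold changes of 0.09, -0.11, 0.32 and 0.24 with EPZ5676, MI-2-2, iBET and MM-401. Genes such as Six4 and Lmo2 stand in the target and partner lists, and Fli1 in the relative and partner lists, so these counts are not separate evidence.

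Of 9 genes known as targets of Myb, Runx1 or Gata2, all were tested. With EPZ5676, 2 rose and 3 fell (median -1.10), with MI-2-2, 2 rose and 5 fell (-1.44), with iBET 3 fell (-0.59) and with MM-401 none was called (-0.26). Beside these counts, 38.1%, 41.4%, 13.9% and 0% of all genes were called. Csf1r, the M-CSF receptor, rose most with EPZ5676 (1.84, adjusted p = 0.0225) and MI-2-2 (1.88, adjusted p = 0.0188). Mpo, myeloperoxidase, fell most, with log2 fold changes of -3.28, -6.18 and -7.40 for EPZ5676, MI-2-2 and iBET. It stood at 386 CPM in DMSO replicate 1 and 4816 in DMSO replicate 2, a gap wider than that of any of the 7 tested regulators. With EPZ5676 it was at 167 and 367, under both, but the size of this fall rests largely on DMSO replicate 2. MI-2-2 (19.5 to 52 CPM) and iBET (14.6 to 16.1) lay far under both DMSO libraries. Whether the Mpo values follow from those of Myb, Runx1 or Gata2 was not tested.

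Over the 10 libraries, genes averaging 5 CPM or more were ranked by the likeness of their log2 CPM to each regulator, and the first were Ppid and Naa25 for Myb (Pearson's r 0.996 and 0.994), Rpap2 and Adi1 for Runx2 (0.996 and 0.989), and Tfb1m and Faf1 for Gata2 (0.980 and 0.975). For Erg they were Siglec5 and Mapk4 (0.996 and 0.987), for Mef2c Erlin2 and Nubp1 (0.986 and 0.983), and for Jmjd1c Gclc and Aco1 (0.974 and 0.969). Among the regulators, r was 0.973 between Runx2 and Gata2, 0.935 between Mef2c and Jmjd1c, and -0.942 between Erg and Jmjd1c. These values describe 5 groups of 2 libraries that share treatments and depth, and the libraries are not independent points.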

How the data were processed

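RNA was sequenced from the 10 libraries with the Illumina TruSeq protocol. The submitters' processing notes name TopHat2, Subread, DESeq and the mm9 build, without versions or order. The deposited values are read counts per gene that the authors made before any normalization, and all were whole numbers. Samples were grouped by their titles. The members and gene lists were chosen with earlier results of these data known.

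The software was edgeR 4.0.16 under R 4.3.3. Genes were kept by filterByExpr, libraries scaled by TMM, and all libraries entered 1 glmQLFit model tested with glmQLFTest. Adjusted p-values (Benjamini-Hochberg) under 0.05 were called, and the code was tested on simulated data. The standard error is the log2 fold change divided by the square root of F. Alternatives used DESeq2 1.42.0 (test or size factors), total-count scaling, no filter or 5 CPM in 2 libraries, a replicate block, only the groups compared, and each library left out. Ratios of few reads carry exact binomial 95% intervals. Exon lengths came from GENCODE for GRCm38. Besides the regulators, the text names the called gene with the largest rise and fall of each list and comparison, and the 2 genes most like each regulator called against DMSO. Genes named outside this rule (single marker genes, Mef2a, Prdm16, Gata1, Runx3 and Cbfb) were chosen after their values were seen. The list counts include 1 gene that is not reported here.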

Additional observations from a re-analysis of the deposited data

How the results depend on the processing

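The calls of Myb, Runx2, Gata2 and Erg with EPZ5676 and of Myb, Runx2 and Gata2 with MI-2-2 held without each library in turn and in each other fit that tested the gene (the 5 CPM filter removes Gata2). With iBET, 2 regulators were called, against 1 with DESeq2 size factors, 5 with the DESeq2 test, 1 with no filter, 0 with only the groups compared, and 1 to 4 with a library left out. With MM-401 none was called, against 0 to 2 with a library left out, the 2 being Eya1 and Runx1 without DMSO replicate 1. Between EPZ5676 and MI-2-2 none was called, against 1 with DESeq2 and 0 to 1 with a library left out. Between MM-401 and iBET 1 was called, against 2 with total-count scaling, 4 with DESeq2, 2 with the 5 CPM filter, 4 with only the groups compared, and 1 to 4 with a library left out. The causes of these shifts were not tested.

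With the replicate number as a replicate block, 4 regulators were called between MM-401 and iBET, 5 with EPZ5676, 5 with MI-2-2, 3 with iBET and 0 with MM-401. Over all genes 6180, 6557 and 3088 were called with EPZ5676, MI-2-2 and iBET under the block, against 4942, 5373 and 1806 without it, and 2470 against 1484 between MM-401 and iBET. The labels do not say that a number marks a shared culture or day, and with 2 numbers per group the check (correlations of 0.278 to 0.666 between the replicate differences of the 10 pairs of groups) does not establish pairs. Fits of only the groups compared called 1174, 1147 and 0 genes, and 4223 between MM-401 and iBET. DESeq2 called 2856 genes with iBET, 297 with MM-401, 156 between EPZ5676 and MI-2-2 and 2313 between MM-401 and iBET. With a library left out, 2633 to 6808 genes were called with EPZ5676, 2772 to 7197 with MI-2-2, 150 to 3720 with iBET and 0 to 1368 with MM-401.

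Log2 fold changes that changed sign with a library left out were all ones that had not passed. Their range over the 10 fits was -0.21 to 0.93 for Runx1 and -0.21 to 0.03 for Jmjd1c with MI-2-2, -0.89 to 0.40 for Gata2 and -0.56 to 0.54 for Runx1 with iBET, -0.13 to 0.32 for Myb, -0.18 to 0.33 for Mef2c, -1.02 to 0.26 for Gata2, -0.64 to 0.45 for Runx1 and -0.13 to 0.44 for Erg with MM-401, -0.13 to 0.24 for Gata2, -0.53 to 0.22 for Mef2c and -0.12 to 0.11 for Jmjd1c between EPZ5676 and MI-2-2, and -0.18 to 0.01 for Runx1 and -0.54 to 0.38 for Gata2 between MM-401 and iBET. Between EPZ5676 and MI-2-2, Jmjd1c was at 0.00 with the 5 CPM filter and with only the groups compared, against -0.01. With 6 to 8 reads in a group, the levels of Erg in iBET and of Gata2 in EPZ5676 and MI-2-2 are known only to a few-fold.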
